A study of Mus musculus with 12 samples.

Results

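The genes described here are 10 enzymes that build the linker and the chains of glycosaminoglycans, out of 55418 gene symbols counted in 12 single tendon cells. They are Fam20b, Xylt1, Xylt2, B4galt7, B3galt6, B3gat3, Chsy1, Chpf, Chpf2 and Ext1. Fam20b was chosen by its counts in these same cells, which differed between the genotypes, and the other 9 were taken for their known place in the same pathway. Every value of these genes between the genotypes is therefore a description and carries no test. The cells were ScxGFP+ cells of non-injured Achilles tendons of mice on a background that the labels give as C57BL/6 and the study's methods as C57BL/6J. ScxGFP is a green fluorescent reporter driven by regulatory sequence of the tendon transcription factor Scx, and all cells of both groups carried it. The groups were 6 Tnmd-/- ScxGFP+ cells, which lack the X-linked gene of the membrane glycoprotein tenomodulin throughout the animal, and 6 WT ScxGFP+ cells. The study's methods let heterozygous females count among WT animals, and the sources used here give neither the sex nor the age of the mice these cells came from. The labels tie no cell to an animal, so each genotype is 1 sample, cells are not replicates, and no test between the genotypes was made.

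Most proteoglycans carry their sulfated chains on a short sugar linker that is built on serine residues of a core protein in the secretory pathway. Xylt1 and Xylt2 attach the xylose that starts the linker, B4galt7 and B3galt6 add a galactose each, and B3gat3 closes it with glucuronic acid. Fam20b is a kinase of the Golgi that phosphorylates the xylose, a step known to promote completion of the linker. On the finished linker Chsy1, Chpf and Chpf2 extend chondroitin chains, and Ext1, which works in a complex with Ext2, extends heparan sulfate chains. In tendon the chains on small proteoglycans such as decorin lie between collagen fibrils.

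Start regions are shown for 3 members that stand for 3 of the patterns found in the counts. These were a gene counted almost only in Tnmd-/- cells, 1 counted almost only in a single WT cell and 1 without a count. They are RefSeq windows of 300 bases on GRCm38.p6, from 250 bases before to 50 after the gene start, written 5′ to 3′ on the gene's strand. Capitals mark 4 motifs wherever they occur on either strand, which are the GC box GGGCGG, the CCAAT box (these letters), the TATA box as TATAAA and the E-box as CACGTG. The Fam20b window lies at chr1:156718861-156719160 on the minus strand, the B4galt7 window at chr13:55599646-55599945 on the plus strand and the B3galt6 window at chr4:155992629-155992928 on the minus strand.
Fam20b: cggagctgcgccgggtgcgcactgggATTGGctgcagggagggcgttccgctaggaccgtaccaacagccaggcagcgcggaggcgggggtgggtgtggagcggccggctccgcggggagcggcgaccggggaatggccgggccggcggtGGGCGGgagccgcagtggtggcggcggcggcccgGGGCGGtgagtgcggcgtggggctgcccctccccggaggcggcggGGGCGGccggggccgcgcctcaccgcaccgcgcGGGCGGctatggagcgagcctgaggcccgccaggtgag
B4galt7: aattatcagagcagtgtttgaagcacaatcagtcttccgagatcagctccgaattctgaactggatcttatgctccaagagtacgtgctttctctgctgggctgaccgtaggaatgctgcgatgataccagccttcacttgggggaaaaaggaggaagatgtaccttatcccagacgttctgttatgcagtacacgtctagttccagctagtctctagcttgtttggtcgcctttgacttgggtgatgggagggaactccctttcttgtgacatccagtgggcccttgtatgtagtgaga
B3galt6: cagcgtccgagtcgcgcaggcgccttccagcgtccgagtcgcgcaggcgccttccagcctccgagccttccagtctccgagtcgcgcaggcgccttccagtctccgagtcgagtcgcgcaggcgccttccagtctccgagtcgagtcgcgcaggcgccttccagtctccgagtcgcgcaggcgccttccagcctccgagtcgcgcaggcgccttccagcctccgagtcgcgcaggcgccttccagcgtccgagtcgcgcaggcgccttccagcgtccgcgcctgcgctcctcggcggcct
The Fam20b window held the GC box at 4 places and the CCAAT box at 1, on the other strand. Neither of the other windows shown held any of the 4 motifs. Of the windows not shown, the GC box occurred at 3 places for Xylt2, at 2 each for Chsy1 and Chpf, and at 0 for B3gat3 and Chpf2. Xylt2 had only 3 counts over all cells and Chpf had 0, and a link between motifs and counts was not tested. Among all 32851 RefSeq windows of this length, the GC box was found in 35.7%, the CCAAT box in 37.4%, the TATA box in 13.6% and the E-box in 7.15%. GC content was 80.3% in the Fam20b window, 72.7% in the B3galt6 window and 48.3% in the B4galt7 window, against a median of 52.7% over all windows. The B3galt6 window held 48 CpG dinucleotides, the Fam20b window 43 and the B4galt7 window 8, against a median of 7. A window was found for 8 of the 10 members. The counts used here cannot tell from which start a transcript came.

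Cells held 892713 to 10333351 counts in the Tnmd-/- group and 4516036 to 13613080 in the WT group, with 35088506 and 53439236 counts in the sums. Values are given as raw read counts or as counts divided by the total of the cell or of the summed group and multiplied by 1000000 (CPM). Intervals are exact 95% intervals and cover counting error only, since the reads were amplified and carry no identifier of the molecule they came from. The study's own annotation marks 3 cells of each genotype as less degraded (Tnmd-/- cells 9, 10 and 20, WT cells 4, 5 and 10) and the other 3 as more degraded (Tnmd-/- cells 1, 3 and 7, WT cells 1, 2 and 14). The mitochondrial share of counts was 1.75% to 7.30% in 11 cells and 51.8% in Tnmd-/- cell 3. Tnmd itself had 8 counts in the Tnmd-/- sum and 10185 in the WT sum, of which 99.9% lay in WT cell 14, so its counts do not tell the other WT cells from Tnmd-/- cells. Scx had 3 and 2074 counts, found in 1 Tnmd-/- and 4 WT cells. Tendon fibroblast markers were counted in every cell, with a summed level of 1684 to 87463 CPM in Tnmd-/- and 30396 to 176924 CPM in WT cells. All 11 had counts over the 12 cells together, but Dcn alone made up 40010 of 52429 CPM in the Tnmd-/- sum and 56340 of 69633 CPM in the WT sum. Of 7 cartilage markers 3 had counts, at 9139 against 8093 CPM, with Col2a1, Col9a1, Matn3 and Cnmd at 0. Endothelial markers reached 30.9 CPM in 1 Tnmd-/- cell, and glial markers 173 CPM in 1 WT cell and 37.7 CPM in 1 Tnmd-/- cell. Immune, mural, red blood cell and adipocyte markers lay below 1 CPM in each cell, and skeletal muscle markers reached 14.6 CPM in 1 Tnmd-/- cell. The part of degradation and of other cell types in the results was not tested.

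Fam20b (ENSMUSG00000033557, chromosome 1, 156678532 to 156719086, minus strand) was counted almost entirely in the 3 less degraded Tnmd-/- cells. It had 2363 counts in Tnmd-/- cell 9, 2014 in cell 10 and 1899 in cell 20, then 13 in cell 1, 1 in cell 7 and 0 in cell 3. In WT cells it had 3 counts in cell 14, 2 each in cells 5 and 10, and 0 in cells 1, 2 and 4. As CPM the 3 high cells lay at 229, 195 and 282, a span of 1.44-fold, and no WT cell exceeded 0.664 CPM. The genotypes still overlapped, because Tnmd-/- cell 3 had no count. The sums were 6290 counts (179 CPM) in Tnmd-/- and 7 counts (0.131 CPM) in WT, a log2 ratio of 10.42 with a counting interval of 9.37 to 11.73. The spread between cells is far wider than that interval, since 99.8% of the Tnmd-/- counts came from 3 cells. Without Tnmd-/- cell 3, the cell with the high mitochondrial share, the ratio was 10.48.

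**Figure D1:**
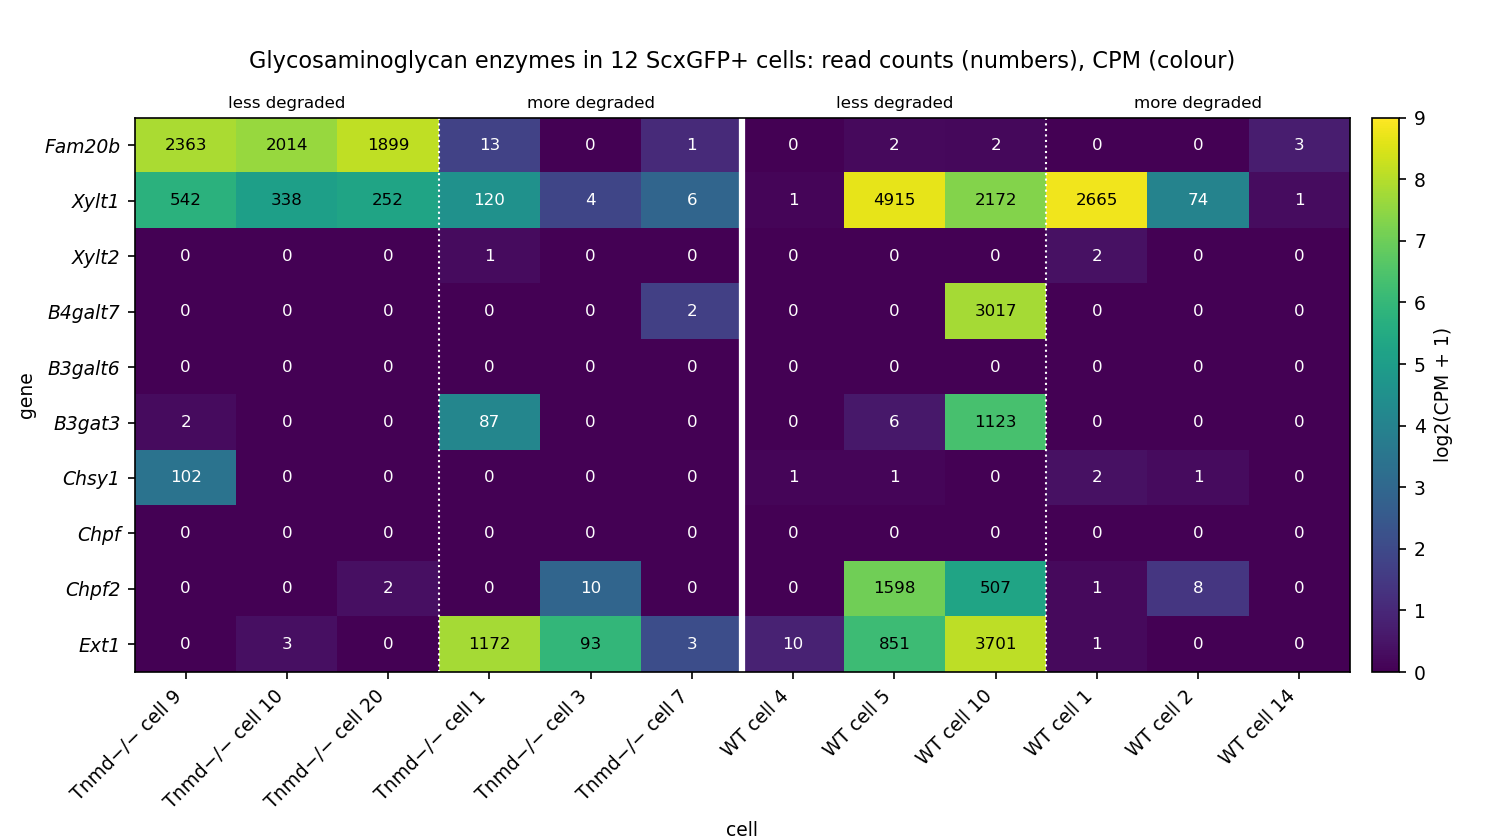
Read counts (numbers) and log2(CPM + 1) (colour) of the 10 enzymes (rows) in the 12 cells (columns), ordered by genotype and by the study's degradation level. Fam20b reaches 1899 to 2363 counts in the 3 less degraded Tnmd-/- cells and at most 3 counts in any WT cell, while most other enzymes sit high in 1 or a few cells.

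Within the less degraded cells all 3 Tnmd-/- cells lay above all 3 WT cells for Fam20b, with 6276 against 4 counts and a log2 ratio of 11.09 (9.74 to 12.97). Among genes with at least 20 counts in these cells, 3.00% showed that order, and the contrast is one that chose the gene. In the more degraded cells the sums were 14 and 3 counts, a log2 ratio of 3.21 (1.37 to 5.65). Fam20b reached 10 counts in 4 Tnmd-/- cells and in no WT cell, a pattern held by 0.225% of the 9768 genes that had 20 counts or more in the 12 cells together. When each cell was thinned to the 892713 counts of the shallowest, Fam20b kept 201, 149 and 242 counts in Tnmd-/- cells 9, 10 and 20, had 3, 1 and 0 in the other Tnmd-/- cells and had 0 in all 6 WT cells. Thinning equalised the totals only, and the cells still differed in degradation level and in their mitochondrial share. Of the 8770 exon bases of Fam20b 4.56% are shared with Gm19918 on the opposite strand, which had no count in any cell.

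Xylt1, which makes the first step of the linker, was the member seen most widely and was lower in the Tnmd-/- sum. It had 542, 338, 252, 120, 6 and 4 counts in Tnmd-/- cells 9, 10, 20, 1, 7 and 3. In WT cells it had 4915 counts in cell 5, 2665 in cell 1, 2172 in cell 10, 74 in cell 2 and 1 count each in cells 4 and 14. The range was 2.66 to 52.5 CPM over Tnmd-/- cells and 0.0802 to 445 CPM over WT cells, so the Tnmd-/- range lay inside the WT range. Xylt1 had a count in all 12 cells, as 7.89% of the 9768 genes did, and at least 10 counts in 4 cells of each genotype. The sums were 1262 counts (36.0 CPM) and 9828 counts (184 CPM), a log2 ratio of −2.35 (−2.44 to −2.27). It was −2.17 in the less and −3.41 in the more degraded cells. Leaving out WT cell 5, which held the most WT counts, gave −1.72. Averaging log2(CPM + 1) over cells instead of summing counts gave a difference of −0.63, and −0.0821 after ComBat correction for the degradation level. Xylt1 spans 117380979 to 117673580 of chromosome 7, plus strand, and shares no exon base with another gene.

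**Figure D2:**
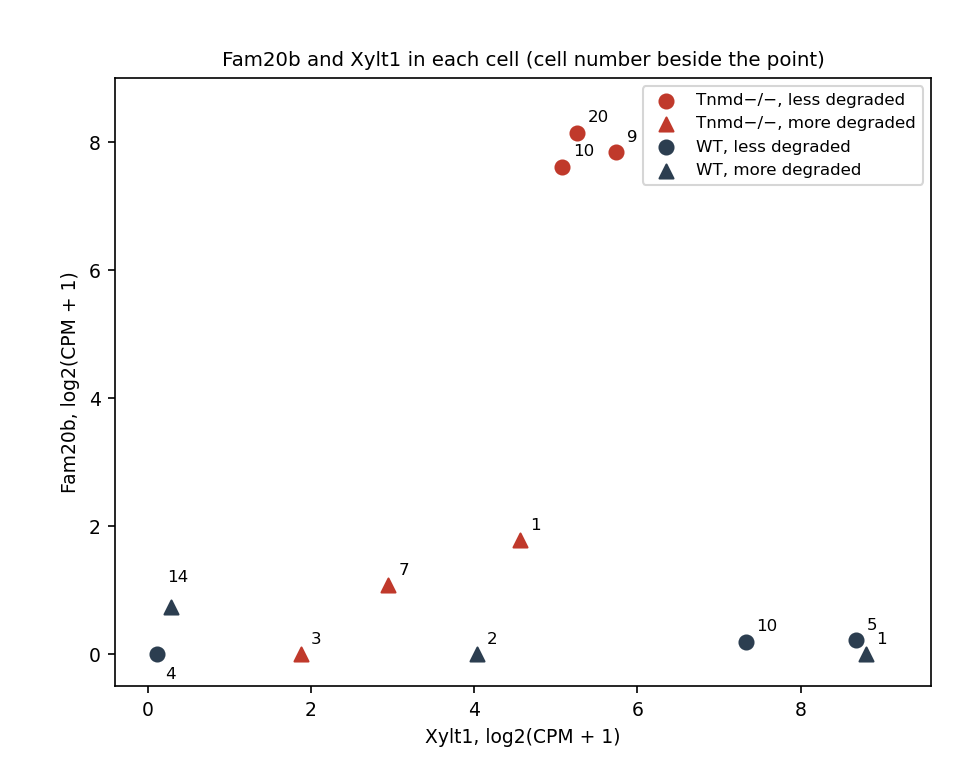
Log2(CPM + 1) of Fam20b (y axis) against that of Xylt1 (x axis) in each of the 12 cells, with genotype as colour and degradation level as marker shape. The 3 less degraded Tnmd-/- cells stand together at 195 to 282 CPM of Fam20b and 32.8 to 52.5 CPM of Xylt1, and the 3 WT cells with 160 to 445 CPM of Xylt1 hold at most 0.166 CPM of Fam20b.

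Xylt2, the second xylosyltransferase, had 1 count in Tnmd-/- cell 1 and 2 counts in WT cell 1 (chromosome 11, 94663851 to 94677515, minus strand). Both sums lay at or below 3 counts, so no ratio was formed. In these libraries nearly all xylosyltransferase reads were thus of Xylt1, with 11090 counts over the 12 cells against 3.

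The remaining linker enzymes were counted in very few cells. B4galt7, which adds the first galactose (chromosome 13, 55599896 to 55610443, plus strand), had 3017 counts (222 CPM) in WT cell 10, 2 counts in Tnmd-/- cell 7 and 0 in the other 10 cells. Its log2 ratio of −9.95 (−13.00 to −8.10) was thus set by 1 WT cell, and without that cell only 2 counts were left and no ratio could be formed. B3galt6, which adds the second galactose and is a gene of 1 exon (chromosome 4, 155989466 to 155992649, minus strand), had 0 counts in all 12 cells. By read depth alone, a count of 0 allows up to 0.0855 CPM in the Tnmd-/- sum and 0.0561 CPM in the WT sum, against a floor of 3 counts in each sum. Molecules lost before sequencing are not covered by this floor, so it does not bound the level in the cells. B3gat3, the glucuronyltransferase (chromosome 19, 8920374 to 8927236, plus strand), had 87 counts in Tnmd-/- cell 1 and 2 in cell 9, and 1123 in WT cell 10 and 6 in cell 5. Its log2 ratio was −3.06 (−3.39 to −2.75), from 89 and 1129 counts. Without WT cell 10 it was 4.07, with the sign turned, and without Tnmd-/- cell 1 it was −8.30. In the less degraded cells it was −8.66 (−11.71 to −6.81), from 2 and 1129 counts. In the more degraded cells 87 counts stood against 0, which is at least 5.85 on the log2 scale against a floor of 3 counts in the WT sum.

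The chondroitin polymerase genes did not share a direction. Chsy1 (chromosome 7, 66109515 to 66173798, plus strand) had 102 counts (9.87 CPM) in Tnmd-/- cell 9 and 0 in the other Tnmd-/- cells, and 2, 1, 1, 1, 0 and 0 counts in WT cells 1, 2, 4, 5, 10 and 14. The log2 ratio was 4.96 (3.69 to 6.61). It rested on that cell, without which 0 counts faced 5 and the ratio was at or below 0.37. Chpf (chromosome 1, 75474569 to 75479307, minus strand) had 0 counts in all 12 cells. Chpf2 (chromosome 5, 24586741 to 24594556, plus strand) had 1598 counts in WT cell 5, 507 in cell 10, 8 in cell 2 and 1 in cell 1, and in Tnmd-/- cells 10 counts in cell 3 and 2 in cell 20. Its log2 ratio was −6.85 (−7.81 to −6.05), from 12 and 2114 counts. It was −9.38 without Tnmd-/- cell 3 and −5.19 without WT cell 5. In the less degraded cells alone it was −9.56, while in the more degraded cells 10 counts against 9 gave 1.14 with an interval of −0.31 to 2.62. Of its exon bases 44.1% are shared with Smarcd3 on the opposite strand and with the microRNA gene Mir671. Smarcd3 had 2 counts in WT cell 5 and 0 in the other cells, and the strand setting of the counting is not given in the sources used here.

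Ext1, the heparan sulfate polymerase (chromosome 15, 53064038 to 53346159, minus strand), was higher in opposite genotypes at the 2 degradation levels. In the less degraded cells it had 3701 counts in WT cell 10, 851 in cell 5 and 10 in cell 4, against 3 in Tnmd-/- cell 10 and 0 in cells 9 and 20. There every WT cell lay above every Tnmd-/- cell, an order seen in 3.27% of genes with at least 20 counts in these cells. In the more degraded cells it had 1172 counts in Tnmd-/- cell 1, 93 in cell 3 and 3 in cell 7, against 1 in WT cell 1 and 0 in cells 2 and 14. There every Tnmd-/- cell lay above every WT cell, as for 3.82% of genes tested at that level. The log2 ratio was −10.09 (−12.37 to −8.55) in the less and 11.30 (8.82 to 16.61) in the more degraded cells. Over all cells the sums were 1271 counts (36.2 CPM) and 4563 counts (85.4 CPM), a log2 ratio of −1.24 (−1.33 to −1.15). Leaving out WT cell 10 turned that value to 0.74, and leaving out Tnmd-/- cell 1 gave −4.68.

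**Figure D3:**
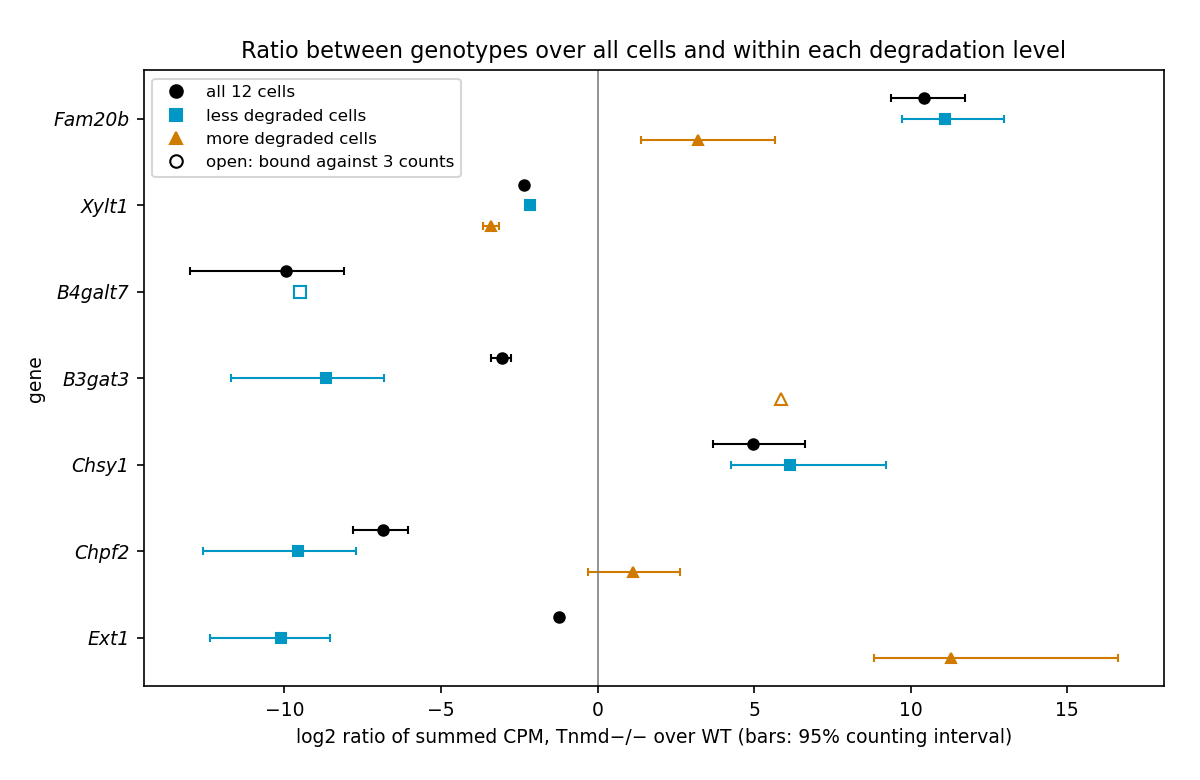
Log2 ratio of summed CPM, Tnmd-/- over WT (x axis), for the 7 enzymes with at least 20 counts (y axis), over all cells, in the less degraded and in the more degraded cells, with 95% counting intervals as bars and bounds against 3 counts as open symbols. Fam20b lies right of 0 at both levels (11.09 and 3.21) and Xylt1 left of it (−2.17 and −3.41), whereas Ext1 lies at −10.09 and 11.30.

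Fam20b was higher in the Tnmd-/- sum, and the summed counts of the other 9 enzymes, of which Chsy1 alone had a ratio above 0, were lower. The summed counts of the other 9 were 2739 (78.1 CPM) in Tnmd-/- and 20658 (387 CPM) in WT cells, a log2 ratio of −2.31 (−2.37 to −2.25). The 5 other linker enzymes together gave −2.76 (−2.84 to −2.68) and the 4 chain enzymes −1.66 (−1.75 to −1.58). Per cell the other 9 summed to between 12.3 and 260 CPM in Tnmd-/- cells (median 50.1) and between 0.221 and 773 CPM in WT cells (median 232). Of the WT cells 3 (1, 5 and 10) lay above every Tnmd-/- cell and 2 (4 and 14) below every one. The ratio was −3.37 in the less degraded cells but 0.11 (0.02 to 0.20) in the more degraded cells. Without Xylt1 these values were −6.16 and 7.50, as at the more degraded level 1268 of the 1368 Tnmd-/- counts were of Ext1.

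Of the 10 members 7 had 20 counts or more in all, and the other 3 had 3, 0 and 0. On the scale log2((CPM + 1)/(CPM + 1)) of the sums, used for values over many genes, 2 of the 7 were at least 2-fold higher in Tnmd-/- cells (Fam20b at 7.32 and Chsy1 at 1.84). The other 5 were at least 2-fold lower (B4galt7 at −5.76, Chpf2 at −4.92, B3gat3 at −2.65, Xylt1 at −2.32 and Ext1 at −1.21). Without WT cell 10 the balance turned to 3 higher and 2 lower. Among the 9768 genes with at least 20 counts 35.5% were at least 2-fold higher and 34.9% lower, so a difference of this size is the common case in these cells. In the less degraded cells alone, where 34.8% of genes were at least 2-fold higher and 38.2% lower, the members again gave 2 higher and 5 lower. In the more degraded cells, where the shares were 45.3% and 41.1%, Fam20b, B3gat3 and Ext1 were higher and Xylt1 was lower, where Fam20b rested on 14 and 3 counts. The median was −2.32 over the 7 members and 0.06 over all genes, whose outer deciles lay at −4.69 and 4.40. Fam20b ranked 17 from the highest of all 9768 genes. From the lowest end B4galt7 ranked 368, Chpf2 827, B3gat3 2129, Xylt1 2325 and Ext1 3203, and Chsy1 ranked 2516 from the highest. With all 12 cells considered, no member had every cell of one genotype above every cell of the other, an order met by 0.0205% of genes in each direction.

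**Figure D4:**
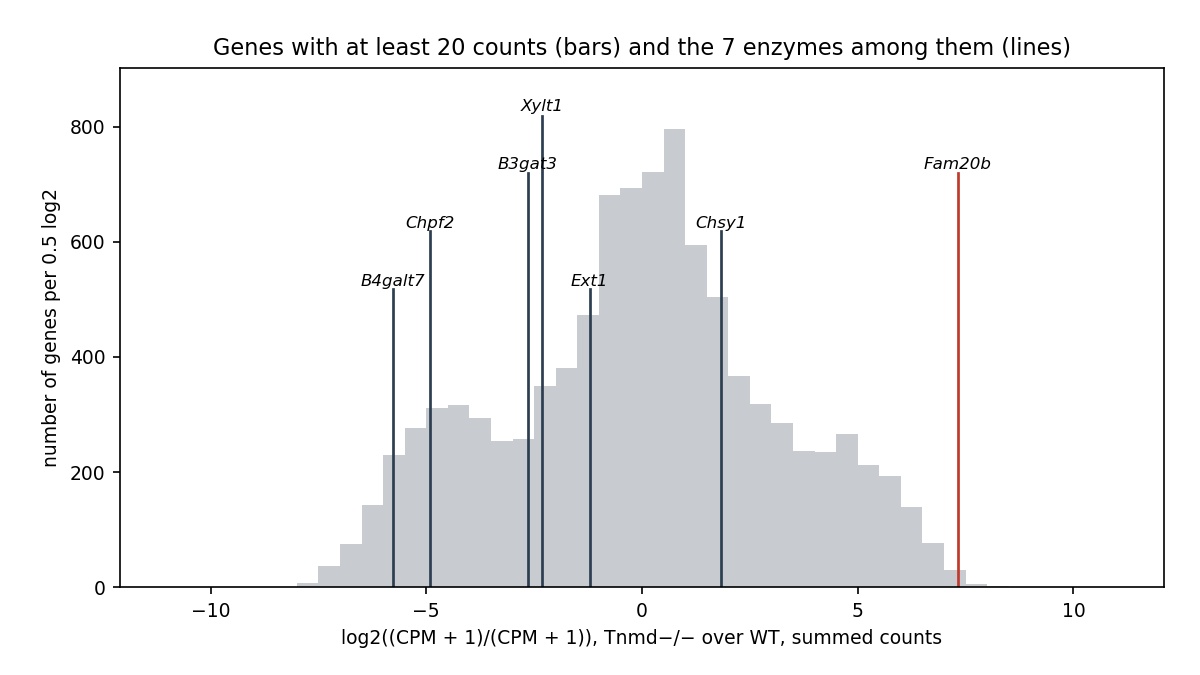
Histogram of log2((CPM + 1)/(CPM + 1)), Tnmd-/- over WT (x axis), for the 9768 genes with at least 20 counts (number of genes per bin on the y axis), with the 7 enzymes as lines. Fam20b at 7.32 lies in the far right tail, whereas the other 6 lie between −5.76 and 1.84, with B4galt7 and Chpf2 below the lowest decile of genes at −4.69.

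Since B3galt6 and Chpf had no count in any cell, no cell could hold counts of all 10 members. Of 120 pairs of a member and a cell, 24 had at least 10 counts (13 in Tnmd-/- and 11 in WT cells), 23 had 1 to 9 counts and 73 had none. The same split over all genes was not computed, so it is not read as a trait of these enzymes. The cell with most members at 10 counts was WT cell 10, with Xylt1, B4galt7, B3gat3, Chpf2 and Ext1, and there Fam20b had 2 counts. Tnmd-/- cell 1 had 4 members at that level, Tnmd-/- cell 9 and WT cell 5 had 3 each, and Tnmd-/- cell 7 and WT cell 14 had 0. The 3 cells with high Fam20b all held Xylt1 at 252 to 542 counts, while Xylt2, B4galt7, B3galt6 and Chpf had no count in them. Fam20b made up 78.5%, 85.5% and 88.2% of the counts of the 10 members in Tnmd-/- cells 9, 10 and 20. In WT cell 1, in contrast, Xylt1 made up 99.8%. Counts that come mainly from 1 cell were not particular to these enzymes. Of genes with at least 1000 counts in the WT sum 36.6% had at least 90% of them in 1 cell, and 40.2% did in the Tnmd-/- sum, while 39.0% of the 9768 genes reached 10 counts in 1 cell of the 12.

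Levels of different genes were compared as CPM per kilobase of exon, using the summed group. In Tnmd-/- cells Fam20b was highest at 20.4, followed by Ext1 at 4.48, Xylt1 at 3.73, B3gat3 at 0.980 and Chsy1 at 0.696, with Chpf2, B4galt7 and Xylt2 below 0.1. In WT cells the order began with B4galt7 at 19.5 and Xylt1 at 19.1, then Ext1 at 10.6, B3gat3 at 8.16 and Chpf2 at 7.08, while Chsy1 at 0.0224, Fam20b at 0.0149 and Xylt2 at 0.00941 stood last of the genes with counts. The ranges over cells overlapped between every pair of neighbours in both orders, so no step in either order exceeds the spread between cells. B4galt7 led the WT order from a single cell, where it reached 76.5 CPM per kilobase.

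The wider pathway was followed in 10 lists of 107 genes, of which 106 were in the table and 35 had no count in any cell. Of 67 with at least 20 counts, 22 were at least 2-fold higher in Tnmd-/- cells and 25 at least 2-fold lower, with a median of −0.49 on the scale with 1 CPM added. Over all genes 35.5% were higher and 34.9% lower, and the list counts given next, several of them over 1 to 4 genes, are read against these shares. A gene of these lists reached 10 counts in a median of 2 cells.

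**Figure D5:**
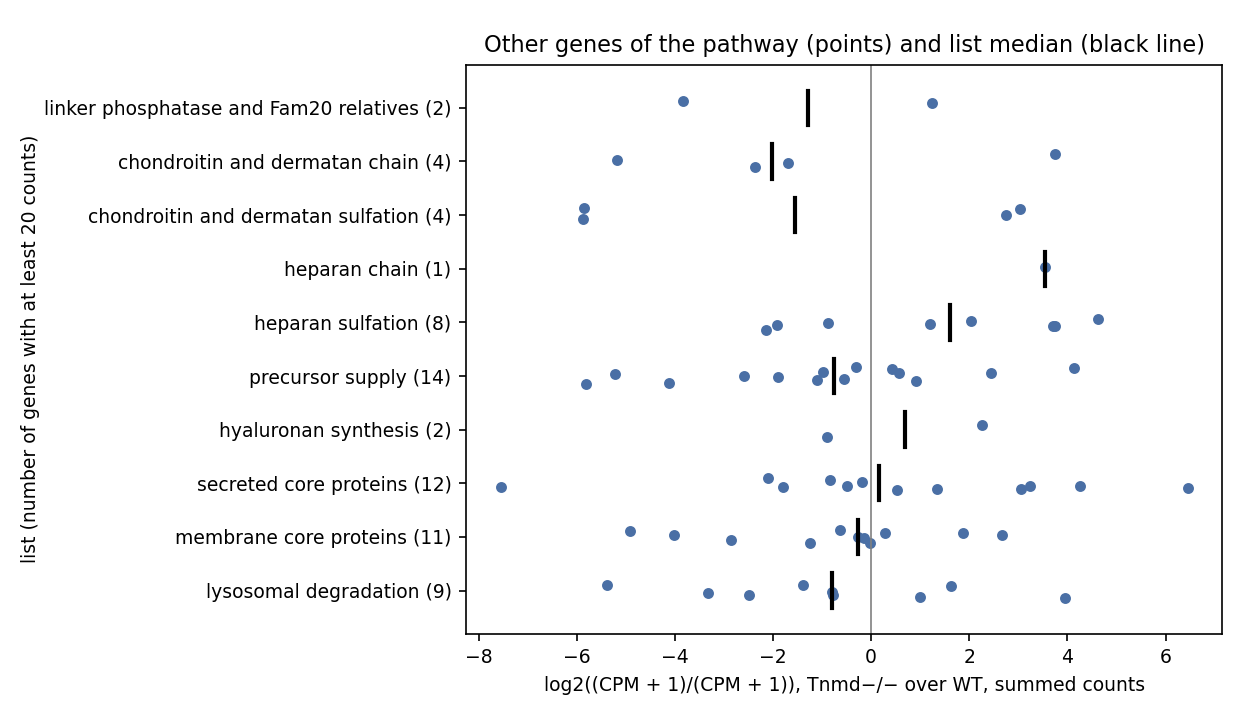
Log2((CPM + 1)/(CPM + 1)), Tnmd-/- over WT (x axis), for each gene of 10 lists around the pathway (y axis, with the number of genes with at least 20 counts), and the median of each list as a black line. Points fall on both sides of 0 in every list with more than 1 gene, and the list medians lie between −2.03 and 3.55.

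Among the closest relatives of Fam20b, the secretory kinase Fam20c was also higher in the Tnmd-/- sum, with 6608 counts (188 CPM) against 4200 (78.6 CPM) and a log2 ratio of 1.26 (1.20 to 1.32). Its counts lay in cells of both genotypes. Fam20c had 4287, 1719 and 599 counts in Tnmd-/- cells 10, 1 and 9 and none in cell 20, and 2182, 1109 and 905 in WT cells 4, 1 and 10. Fam20a, a pseudokinase, had 706 counts in WT cell 1 and 0 elsewhere, a log2 ratio at or below −7.27 against a floor of 3 counts in the Tnmd-/- sum. Pxylp1, the phosphatase that removes the phosphate Fam20b adds, had 0 counts in all 12 cells.

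Genes that extend or modify chondroitin and dermatan chains were each carried by few cells. Of 4 chain genes with at least 20 counts 1 was at least 2-fold higher and 3 lower, with a median of −2.03 that was 0.47 in the more degraded cells (all genes 35.5% higher and 34.9% lower). Csgalnact2, which starts chondroitin chains, had 1653 against 13172 counts (log2 ratio −2.39, −2.46 to −2.31), with 1646 in Tnmd-/- cell 20 and 5401, 4452 and 3245 in WT cells 5, 2 and 14. Dse, an epimerase that makes dermatan, had 888 against 51 counts (4.73, 4.32 to 5.17), of which 884 were in Tnmd-/- cell 10. Its paralog Dsel had 5 against 2153 (−8.14, −9.77 to −6.92), with all the WT counts in cell 5. Of 4 sulfotransferase genes 2 were higher and 2 lower. Chst11 had 251 counts, all in Tnmd-/- cell 9, against 0, which is at least 6.99 on the log2 scale against the same floor. Chst12 had 2 against 3272 counts (−10.07, −13.12 to −8.21) and Chst15 3 against 3283 (−9.49, −11.77 to −7.94), nearly all in WT cell 5.

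Heparan sulfate genes gave the same picture of single cells. In the chain list Extl3 alone had at least 20 counts, with 384 in Tnmd-/- cell 9 and 1 in WT cell 2 (9.19, 6.71 to 14.50), and Ext2, the partner of Ext1, had 1 count in all. Of 8 sulfation genes 5 were at least 2-fold higher and 2 lower, against 35.5% and 34.9% of all genes, with a median of 1.62 over all cells, −0.24 in the less and −0.09 in the more degraded cells. Hs3st5, a sulfotransferase, had 861 counts in Tnmd-/- cell 9 against 2 (9.36, 7.50 to 12.40), and Hs3st1 had 2 against 195, all in WT cell 10 (−6.00, −9.06 to −4.13). Sulf1, an extracellular sulfatase that trims heparan sulfate, was spread more widely. It had 8361 counts (238 CPM) against 48017 (899 CPM), a log2 ratio of −1.91 (−1.95 to −1.88), and at least 10 counts in 6 Tnmd-/- and 5 WT cells.

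Supply of the sugar precursors was led by Ugdh, which makes UDP-glucuronic acid and was counted in all 12 cells, at 66 to 6323 counts in Tnmd-/- and 690 to 10912 in WT cells. Its sums of 14125 (403 CPM) and 26622 counts (498 CPM) gave a log2 ratio of −0.31 (−0.34 to −0.28), which was −0.68 in the less and 0.43 in the more degraded cells. Uxs1, which turns that product into the UDP-xylose used by Xylt1, had 1 count over the Tnmd-/- cells and 1891, 871 and 256 counts in WT cells 2, 10 and 4 (−10.95, −16.26 to −8.48). In the 3 cells with high Fam20b it had 1 count together. Slc35b3, a carrier of the sulfate donor into the Golgi, had 1660 against 93 counts (4.76, 4.46 to 5.08), of which 1659 were in Tnmd-/- cell 10. Over 14 supply genes 2 were at least 2-fold higher and 6 lower, against 35.5% and 34.9% of all genes, with a median of −0.76 that was 0.0756 in the more degraded cells. Hyaluronan, which is made without this linker, was represented by Has1 with 2069 against 5921 counts (−0.91, −0.98 to −0.84, but 0.28 in the more degraded cells) and Has2 with 448 against 100 (2.77, 2.45 to 3.10). All 448 counts of Has2 were in Tnmd-/- cell 20, and 99 of the 100 were in WT cell 5.

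Genes listed as core proteins were found on both sides. Not every listed protein need carry chains on this linker, and which of them do was not examined. Decorin (Dcn), a small proteoglycan of tendon with a single chain, had 1403879 counts (40010 CPM) in Tnmd-/- and 3010781 (56340 CPM) in WT cells, at least 1397 counts in each cell and a log2 ratio of −0.49 (−0.50 to −0.49), which was −0.14 in the less and −3.27 in the more degraded cells. Of 12 secreted core genes 5 were at least 2-fold higher and 3 lower, with a median of 0.17. Spock1 had 3216 against 3 counts (10.67, 9.12 to 12.95), of which 3214 were in Tnmd-/- cell 3, the cell with the high mitochondrial share. Lum, which encodes lumican, had 40 against 21388 counts (−8.46, −8.94 to −8.01), with 18204 in WT cell 5 and 3184 in WT cell 4, while in the more degraded cells 20 counts stood against 0. Of 11 membrane core genes 2 were higher and 4 lower, with a median of −0.27. Sdc4, a syndecan, had 39847 against 72948 counts (−0.27, −0.28 to −0.25, with 0.11 in the less and −3.28 in the more degraded cells). Sdc3 had 394 against 49 (3.61, 3.18 to 4.07), with 393 in Tnmd-/- cell 1 and all 49 in WT cell 2. Gpc1, a glypican, had 0 against 1550 counts in WT cell 5 (at or below −8.41 against the floor). Of 9 lysosomal genes that take the chains apart 2 were higher and 4 lower, with a median of −0.80. Sgsh had 527 against 2 counts (8.65, 6.79 to 11.70), all 527 in Tnmd-/- cell 9. Hexa had 2 against 2294 counts (−9.56, −12.60 to −7.70), 2292 of them in WT cell 10.

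The 5 genes whose pattern over the 12 cells was most like that of Fam20b were Ptbp1, Terf1, Pfas, Sertad1 and Cenpc1, out of 3190 genes with at least 10 counts in 4 or more cells. Pearson's r of log2(CPM + 1) with Fam20b was 0.935, 0.923, 0.918, 0.915 and 0.869 in that order. These are descriptions over 12 cells, with the 5 picked for their likeness and with library depth and degradation shared by the points. Terf1, which encodes a telomere-binding protein, had 628, 600 and 1418 counts in Tnmd-/- cells 9, 10 and 20 and at most 4 in a WT cell. Ptbp1, a splicing regulator with 20.7% of its exon bases shared with other genes, had 838, 1467 and 677 counts there and at most 95 in a WT cell. Pfas, an enzyme of purine synthesis, had 145, 200 and 373 counts and at most 17 in a WT cell. Sertad1 had 2517, 7621 and 1617 counts against at most 226, and Cenpc1, a centromere protein, 3754, 568 and 1940 against at most 369. Like Fam20b, all 5 had their 3 highest CPM in the 3 less degraded Tnmd-/- cells. The 5 were picked for likeness to Fam20b, and the share of all genes with that order was not computed. A different pattern was at least 10 counts in these 3 cells and in 0 less degraded WT cells. It was found for 0.358% of the 9768 genes. Fam20b, Terf1 and Pfas met it, whereas Ptbp1, Sertad1 and Cenpc1 did not.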

How the data were processed

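Tendons were digested with collagenase, ScxGFP+ cells were picked singly by micromanipulation, and Smart-Seq2 cDNA (full-length, without molecular identifiers) was sequenced as Nextera XT libraries. The authors trimmed reads with BBDuk 38.84, removed non-mouse reads with BioBloom Tools 2.0.13, aligned to GRCm38 (Ensembl 96) with STAR 2.5.1b and counted unique exon reads with featureCounts of Subread 2.0.0. The deposited values are raw counts per gene and cell, with no normalization or degradation correction. The strand setting of counting is not given in the sources used here. Total counts were 892713 to 13613080 per cell.

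Groups came from the labels and the degradation level from the study's annotation of its heat map. Since no label names an animal, each genotype was handled as 1 sample and no p-value or standard error was computed, unlike the study, which treated cells as replicates. CPM are counts summed per genotype, over the genotype's total, scaled to 1000000. Ratios have exact Clopper-Pearson and sums exact Poisson intervals at 95%. A sum of 0 was replaced by a floor of 3 counts to give a bound, and pairs of sums that were both at or under this floor have no ratio. The floor is a set value, and a bound leaves out the counting error of the other sum. Values over many genes used those with 20 counts or more in the 12 cells together, after adding 1 CPM. Coordinates and exon overlaps came from GENCODE M21 and start regions from RefSeq.

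The 10 members, the gene lists and the alternatives were chosen with earlier results of these data known. Named are the members, in each list the highest, the lowest and the most counted gene (with Pxylp1 and Ext2 added for their counts of 0 and 1 after these were seen), the 5 genes most like Fam20b, and Tnmd and Scx. A gene that this rule picks is not reported here. Alternatives were equal weight per cell, the difference of mean log2(CPM + 1), TMM factors of edgeR 4.0.16, size factors of DESeq2 1.42.0, totals without mitochondrial genes and the 50 top genes, each degradation level alone, ComBat of sva 3.50.0, each cell left out, 5 CPM in place of 1, a minimum of 100 or 1 counts, 4-fold in place of 2-fold, detection at 1 or 50 counts, and thinning to 892713 counts. Scripts, tested on simulated data, used R 4.3.3 and Python 3.11.15 (scipy 1.17.1, pandas 2.3.3, numpy 2.4.6).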

Additional observations from a re-analysis of the deposited data

Results flagged for a closer look

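In 9 of 16 groups of 6 cells (the 8 enzymes with counts, in each genotype) 1 cell stood apart. In log2(CPM + 1), its gap to the nearest other cell took more of the group's whole range than Dixon's 95% critical value allows. Chance gives this in about 1 in 20 groups of normally spread replicates, a rate that does not carry over here, since cells are not replicates and a group with counts in 1 cell alone has a share of 1 by construction. The share of the range was 1 where every other cell had 0, which held for Xylt2 in Tnmd-/- cell 1 (1 count), Xylt2 in WT cell 1 (2 counts), B4galt7 in Tnmd-/- cell 7 (2 counts), B4galt7 in WT cell 10 (3017 counts) and Chsy1 in Tnmd-/- cell 9 (102 counts). It was 0.938 for B3gat3 in Tnmd-/- cell 1 (87 counts), 0.908 for B3gat3 in WT cell 10 (1123 counts), 0.872 for Chpf2 in Tnmd-/- cell 3 (10 counts) and 0.698 for Fam20b in WT cell 14 (3 counts). WT cell 10 holds the high value of both B4galt7 and B3gat3, whose products act in the same linker, with no count of B4galt7 in the other WT cells.

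Ext1 differed between the genotypes in opposite directions at the 2 degradation levels. Its log2 ratio was −10.09 in the less degraded cells, where all 3 WT cells lay above all 3 Tnmd-/- cells, and 11.30 in the more degraded cells, where all 3 Tnmd-/- cells lay above all 3 WT cells. The difference between the levels was not tested, since each genotype is 1 sample.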

How the results depend on the processing

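The log2 ratio of Fam20b, 10.42 as reported, stayed above 0 under every alternative tried. Since Fam20b was chosen by its counts in these same cells, the alternatives describe the same counts again and are not separate evidence. It was 9.19 with TMM factors, 8.16 with DESeq2 size factors, 4.22 as a difference of mean log2(CPM + 1), 3.91 after ComBat and 3.21 in the more degraded cells, and 10.03 to 11.10 when each cell was left out in turn. The summed ratio of the other 9 enzymes, −2.31, was −1.96 with equal weight per cell, −1.82 with DESeq2 size factors, −1.85 with TMM factors, −3.37 in the less degraded cells, −0.48 after ComBat and −3.08 to −1.71 with each cell left out. Its sign turned as a difference of mean log2(CPM + 1), at 0.20, and in the more degraded cells, at 0.11. The count of 7 members past 2-fold was 4 in the more degraded cells and 5 to 7 with each cell left out, with 3 higher and 2 lower without WT cell 10. The 4 Tnmd-/- cells in which Fam20b reached 10 counts became 5 at 1 count, 3 at 50 counts and 3 after thinning. The WT cells numbered 0 at 10 counts, 3 at 1 count, 0 at 50 counts and 0 after thinning.

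Sign changes of single members were those of B3gat3 (5.85 in the more degraded cells, −8.30 to 4.07 with each cell left out), Chpf2 (1.14 in the more degraded cells) and Ext1 (0.15 as a difference of mean log2(CPM + 1), 11.30 in the more degraded cells, −4.68 to 0.74 with each cell left out). With each cell left out Xylt1 ranged from −2.74 to −1.72, B4galt7 from −10.34 to −9.33 (the latter a bound, with 0 Tnmd-/- counts) and Chpf2 from −9.38 to −5.19. Chsy1 reached 5.52, and without Tnmd-/- cell 9 it was at or below 0.37, so its sign was open there. As a difference of mean log2(CPM + 1) and after ComBat, Xylt1 came to −0.63 and −0.0821 and B4galt7 to −1.02 and −1.27. Among list medians the sign turned for the linker phosphatase and Fam20 relatives (0.56, less degraded), chondroitin and dermatan chains (0.47, more degraded), heparan chains (−0.0912, more degraded), precursor supply (0.0756, more degraded), secreted core proteins (−0.0680, less degraded) and heparan sulfation (−0.24, less, and −0.0884, more degraded). The cause was not tested. No ratio of B4galt7 could be formed without WT cell 10. The floor of 3 counts set for a sum of 0 stands at 0.0561 CPM for the summed WT and 0.0855 CPM for the summed Tnmd-/- cells, by read depth alone. Loss of molecules before sequencing comes on top and was not measured. No paired analysis was possible because the cell numbers shared between the genotypes are only names and no result comes from a test.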
